A study of Mus musculus with 10 samples.

Results

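Total RNA was compared between day 7 and day 4 of culture in Tet3-overexpressing mouse embryonic stem (ES) cells, using the 2 libraries of that course out of the 10 libraries of the study. The members were the day 7 and the day 4 library that the labels name as Tet3-overexpressing, and genes at 1 RPKM or more on either day were compared. RPKM is a read count divided by transcript length and by sequencing depth. Of 21937 listed gene symbols, 11631 reached that level. The cells were C57BL/6 ES cells grown with fetal bovine serum (FBS), a condition that the labels call non-permissive for neural differentiation. All library titles begin with EB, for embryoid bodies, which are aggregates of differentiating ES cells. The groups used here are Tet3-overexpressing cells on day 7 and on day 4, and control cells, labelled CTL, on day 7 and on day 4, each as 1 library. How Tet3 was overexpressed, from which promoter, in how many clones and with what control construct is not given in the sources used here. The comparison asks which transcripts differ between the days while Tet3 is overexpressed, and where that course departs from the control course. With 1 library a side there is no replicate error and no test, so every difference below is between single libraries.

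Tet enzymes oxidise methylated cytosine in DNA, which is a step in removing the methyl mark. ES cells that aggregate in serum leave pluripotency over several days and pass through a state like the primitive streak of the embryo, in which the transcription factors T, Eomes and Mixl1 are transcribed. Mesoderm and endoderm arise from the streak, and blood, blood vessel, heart muscle and connective tissue genes follow.

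Between day 7 and day 4, transcripts of the primitive streak and of early endoderm became more abundant in the overexpressing cells, whose pluripotency transcripts stayed high. Cer1, a secreted antagonist of Nodal, BMP and Wnt signals, was at 24.7 RPKM on day 7 and 0.15 RPKM on day 4. Lhx1, a homeobox factor of the streak's derivatives and of anterior visceral endoderm, was at 15.3 RPKM on day 7 and 0.02 RPKM on day 4. Pou5f1, the central pluripotency factor, was at 879.9 RPKM on day 7 and 1186 RPKM on day 4. Collagen transcripts of connective tissue were lower on day 7, and embryonic globin transcripts were at 5.15 RPKM or less on both days.

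The promoter windows of 3 streak genes higher on day 7 in overexpressing cells, and of a collagen gene lower there, are shown. They are given because the enzyme that was overexpressed acts on cytosine in CpG pairs. In control cells Lhx1 and Cer1 were higher on day 7 too, and T was lower. No other collagen window is given, so Col3a1 does not stand for collagen genes at large. Each window runs from 250 bases before to 50 bases after the gene's start in RefSeq, on build GRCm38.p6, is written 5′ to 3′ on the gene's strand, and has its CpG pairs in capitals.
T, chr17:8434173-8434472, plus strand: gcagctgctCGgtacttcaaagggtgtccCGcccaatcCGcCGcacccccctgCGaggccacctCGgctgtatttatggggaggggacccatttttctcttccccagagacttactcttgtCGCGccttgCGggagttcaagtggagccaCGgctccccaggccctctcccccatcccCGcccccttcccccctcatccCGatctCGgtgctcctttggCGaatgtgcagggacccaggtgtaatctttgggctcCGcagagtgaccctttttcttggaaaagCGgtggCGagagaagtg
Lhx1, chr11:84525485-84525784, minus strand: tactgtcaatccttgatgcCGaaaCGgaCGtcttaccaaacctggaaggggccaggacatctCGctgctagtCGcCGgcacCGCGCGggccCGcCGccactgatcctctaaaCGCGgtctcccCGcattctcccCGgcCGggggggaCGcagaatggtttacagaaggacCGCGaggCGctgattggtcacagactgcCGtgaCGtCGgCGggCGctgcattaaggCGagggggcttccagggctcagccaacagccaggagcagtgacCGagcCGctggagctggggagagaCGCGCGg
Cer1, chr4:82885102-82885401, minus strand: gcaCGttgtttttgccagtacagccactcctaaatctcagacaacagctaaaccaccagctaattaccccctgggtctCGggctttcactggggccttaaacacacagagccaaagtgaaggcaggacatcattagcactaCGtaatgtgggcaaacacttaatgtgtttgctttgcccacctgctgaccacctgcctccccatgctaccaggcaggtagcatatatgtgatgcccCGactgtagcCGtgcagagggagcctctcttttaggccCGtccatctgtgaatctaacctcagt
Col3a1, chr1:45311288-45311587, plus strand: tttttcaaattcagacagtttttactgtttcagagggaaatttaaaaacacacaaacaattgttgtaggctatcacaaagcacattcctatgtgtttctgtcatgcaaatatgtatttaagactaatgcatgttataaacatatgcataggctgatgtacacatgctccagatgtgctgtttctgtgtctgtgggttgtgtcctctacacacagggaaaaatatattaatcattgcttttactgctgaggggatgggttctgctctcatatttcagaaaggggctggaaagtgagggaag
The T window holds 17 CpG pairs, a number that 31.4% of all 32851 RefSeq windows of the same length reach. The Lhx1 window holds 31, reached by 10.6% of windows, and the Cer1 window 6, reached by 56.4%. No CpG lies in the Col3a1 window, as in 5.43% of windows. A window was found for 16 of the 22 primitive streak genes listed. Their median was 11 CpG pairs, against 7 over all windows. These are not the same 16 listed genes that reached 1 RPKM in overexpressing cells. They include Cdx2, Cdx4, Mesp2, Msgn1, Tbx6 and Wnt3a, which did not reach it, and lack Mixl1 and Fgf8, which were higher on day 7. The median above and the letter counts below thus come in part from genes under 1 RPKM in overexpressing cells. Genes of high and of low CpG content stand side by side among the listed streak genes. The letters AGGTGT, part of the site of T-box factors, occur on either strand in 6 of these 16 windows and in 13.7% of all windows, and the printed T window is one of the 6. CCAAT, the letters of the CCAAT box, occurs in 9 of the 16 and in 37.4% of all, CTTTGTT, letters of the site of SOX factors, in 2 and 5.85%, and CTTTGAT, letters of the site of TCF/LEF factors, in 2 and 3.73%. The last 2 motifs share their first letters and were counted apart. Such matches describe letters only.

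Depth was estimated at 17000000 reads for the day 7 and 22400000 for the day 4 library of overexpressing cells, and at 26900000 and 43500000 for control cells on day 7 and day 4. Between 11144 and 11481 genes reached 1 RPKM in each of the 4 libraries, and 8.29% to 9.4% of all RPKM fell on the top 10 genes. The targeted gene itself, Tet3, was at 14.1 RPKM on day 7 and 12.5 RPKM on day 4 in overexpressing cells, against 5.87 and 0.96 RPKM on the same days in control cells. The overexpressing cells held more Tet3 transcript than the control cells on both days, and the margin was narrower on day 7. The table gives 1 value per gene, so transcripts of the introduced and of the native Tet3 gene cannot be told apart. Tet1 was at 7.97 RPKM on day 7 and 14.3 RPKM on day 4 in overexpressing cells, against 2.55 and 9.71 RPKM in control cells. Tet2 was at 3.17 and 6.98 RPKM, against 2.10 and 3.69 RPKM in control cells. Both of these relatives of Tet3 were lower on day 7 in both kinds of cells, by log2 ratios of -0.81 and -1.03 in overexpressing cells.

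In overexpressing cells, day 7 exceeded day 4 by 2-fold or more for 402 of 11631 genes (3.46%) and fell short of it by as much for 146 (1.26%). Ratios are given as log2(RPKM + 0.5) on day 7 minus that on day 4, which understates the change of low genes. The median ratio was 0.02 and the standard deviation across genes 0.489. Over the same days in control cells, 1423 of 12125 genes (11.7%) were higher by that much and 1053 (8.68%) lower, and the standard deviation was 0.986. At 4-fold or more, 100 genes were higher in overexpressing cells and 511 in control cells, and at 16-fold or more 8 and 60. The day 7 library of overexpressing cells correlated with its own day 4 library at Pearson 0.975, with the control library of day 4 at 0.976 and with that of day 7 at 0.91, across the log2 levels of 12387 genes. These are descriptions over genes, which are not independent replicates. By this measure the overexpressing cells on day 7 lay nearer to either day 4 library than to control cells of the same day.

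**Figure D1:**
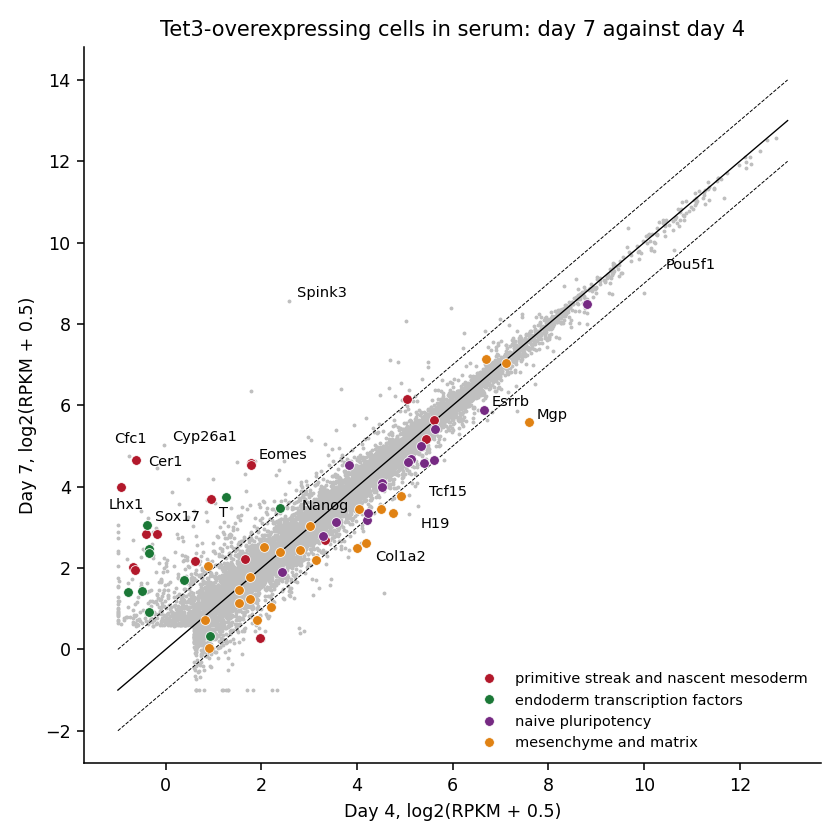
Level of each of 11631 genes in Tet3-overexpressing cells on day 7 (vertical axis) against day 4 (horizontal axis), both as log2(RPKM + 0.5), 1 library each. The solid line marks equal levels and the dashed lines a 2-fold difference of these values. Above the upper line lie 11 of 16 primitive streak genes (red), most of them at the left, and 9 of 10 endoderm genes (green). Cdx1 lies under the lower line and the other red points between the lines. Naive pluripotency genes (purple) lie between the lines or just under the lower one, and 8 of the mesenchyme and matrix genes (orange) lie under it.

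The 12 genes with the largest ratios at 5 RPKM or more came from several classes. Spink3, a secreted protease inhibitor listed among the visceral endoderm genes, led with 376.7 RPKM on day 7 and 5.51 RPKM on day 4 in overexpressing cells, against 676.0 and 1.40 RPKM in control cells. Its log2 ratio was 5.97 in overexpressing cells, and the 95% Clopper-Pearson interval of the read ratio, which covers counting error only and carries no pseudocount, was 5.79 to 6.41. Spink3 was thus higher on day 7 in both kinds of cells. Cfc1, a co-receptor of Nodal, was at 26.3 RPKM on day 7 and 0.09 RPKM on day 4, against 37.0 and 1.03 RPKM in control cells. Its interval, 6.40 to 11.31, lies above the ratio of 5.51 because the pseudocount shrinks the ratio of a gene near 0. Cyp26a1, the enzyme that breaks down retinoic acid, was at 32.3 RPKM on day 7 and 0.48 RPKM on day 4 (log2 5.06), against 16.5 and 2.65 RPKM in control cells (2.43). Amot, a scaffold of cell junctions, was at 81.7 RPKM on day 7 and 2.92 RPKM on day 4, against 133.5 and 11.0 RPKM in control cells. Also among the 12 genes with the largest ratios were Pga5, which encodes a pepsinogen, at 21.6 RPKM on day 7 and 0.38 RPKM on day 4, and Asb4, an imprinted gene of an ankyrin repeat protein, at 17.7 and 0.88 RPKM. Tmprss2, a membrane serine protease, was at 10.1 RPKM on day 7 and 0.20 RPKM on day 4. Aplnr, the receptor of apelin, was at 6.21 RPKM on day 7 and listed at 0 on day 4, and Klhl6, a kelch-like adaptor, was at 6.89 RPKM and listed at 0. All 12, which also include Cer1 and Lhx1, were higher on day 7 in control cells too, apart from Mir302d.

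Genes lower on day 7 were fewer and the differences smaller. Of the 146, 3 were lower by 8-fold or more, all of them small RNA genes, against 29 higher by that much. The 29 hold some small RNA genes too, such as Mir302d. Mgp, an inhibitor of calcification in matrix, was at 47.3 RPKM on day 7 and 192.2 RPKM on day 4 in overexpressing cells (log2 -2.01), against 12.6 and 104.8 RPKM in control cells (-3.0). H19, an imprinted noncoding RNA, was at 9.51 RPKM on day 7 and 33.6 RPKM on day 4 (-1.77), against 6.02 and 20.7 RPKM in control cells (-1.70). Tcf15, a bHLH factor of paraxial mesoderm that is also transcribed in ES cells, was at 11.0 RPKM on day 7 and 38.1 RPKM on day 4, against 2.16 and 9.51 RPKM in control cells. Myo1f, an unconventional myosin, was at 0.83 RPKM on day 7 and 6.53 RPKM on day 4, against 0.37 and 1.26 RPKM. Gbx2, a homeobox factor of the anterior hindbrain, was at 2.82 and 10.4 RPKM, against 0.43 and 1.84 RPKM, and Tm4sf1, a membrane protein, at 2.01 and 7.90 RPKM. These genes were thus lower on day 7 in both kinds of cells. Aard, at 0.93 RPKM on day 7 and 6.37 RPKM on day 4, was at 1.44 and 1.25 RPKM in control cells and so was not lower there. The other genes among the 12 with the smallest ratios were Col1a2, a collagen gene, and the 4 small RNA genes AF357355, Snord47, Snord16a and Snora68. The small RNA genes rest on few reads: Snord47 had an estimated 1 read on day 7 and 12 on day 4. Small RNA genes made up 33 of the 402 higher and 29 of the 146 lower genes, though only 101 of them were among the genes compared.

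The primitive streak list had medians of opposite sign in the 2 kinds of cells. Of 22 listed genes of the primitive streak and nascent mesoderm, 16 reached 1 RPKM on either day in overexpressing cells, 11 of these passed 2-fold upward on day 7 and 1 downward, with a median log2 ratio of 2.65 against 0.02 over all genes. In control cells 17 reached 1 RPKM, 3 were higher and 9 lower, with a median of -1.12. A gene that passes the level needed only because it is high on 1 day had to differ, so these counts describe the genes that passed. Among all genes compared, 3.46% were higher and 1.26% lower in overexpressing cells, and 11.7% and 8.68% in control cells. T, the founding T-box factor of mesoderm, was at 12.5 RPKM on day 7 and 1.44 RPKM on day 4 in overexpressing cells (log2 2.74, counting interval 2.47 to 3.76), against 4.72 and 69.2 RPKM in control cells (-3.74, interval -4.18 to -3.58). The overexpressing cells were thus high on day 7 and the control cells on day 4, and the control level of day 4 was the highest of the 4. Fgf8, a growth factor secreted by the streak, was at 22.8 RPKM on day 7 and 2.95 RPKM on day 4 (2.75), against 7.07 and 55.3 RPKM in control cells (-2.88). Mixl1, a homeobox factor of mesendoderm, was at 6.62 and 0.25 RPKM (3.25), against 1.02 and 5.02 RPKM in control cells (-1.86). Eomes, a T-box factor of the streak and of definitive endoderm, was at 23.5 and 2.95 RPKM (2.80), against 5.55 and 12.7 RPKM in control cells (-1.12). For each of these genes day 7 was the higher day in overexpressing cells and day 4 in control cells.

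Several of the streak genes were higher on day 7 in overexpressing cells than in any other library. Gsc, the organizer factor goosecoid, was at 6.67 RPKM on day 7 and 0.38 RPKM on day 4, against 1.22 and 2.73 RPKM in control cells. Mesp1, a bHLH factor of cardiac mesoderm precursors, was at 3.56 and 0.12 RPKM, against 0.41 and 0.70 RPKM. Cer1 and Lhx1, printed above, were at 3 and 3.70 RPKM in control cells on day 7, and at 0.61 and 1.64 RPKM in control cells on day 4. Gsc, Mesp1, Cer1, Lhx1, Mixl1 and Eomes all had their highest level of the 4 libraries in overexpressing cells on day 7. Other members did not follow this order. Nodal, the signal that induces the streak, was at 35.3 RPKM on day 7 and 42.9 RPKM on day 4 in overexpressing cells (log2 -0.28), against 16.3 and 61.7 RPKM in control cells (-1.89). Its target and feedback inhibitor Lefty2 was at 49.0 and 48.5 RPKM, against 18.2 and 71.3 RPKM in control cells. Foxh1, a partner of Smad proteins in Nodal signalling, was at 70.2 and 32.3 RPKM, against 73.8 and 68.9 RPKM. Nodal and Lefty2 thus kept near their day 4 levels in overexpressing cells and were lower on day 7 in control cells. Cdx1, a homeobox factor of the posterior body, was the member at least 2-fold lower, at 0.72 RPKM on day 7 and 3.40 RPKM on day 4. Its relative Cdx2 stayed below 1 RPKM, at 0.93 and 0.38 RPKM, against 44.9 and 2.75 RPKM in control cells.

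**Figure D2:**
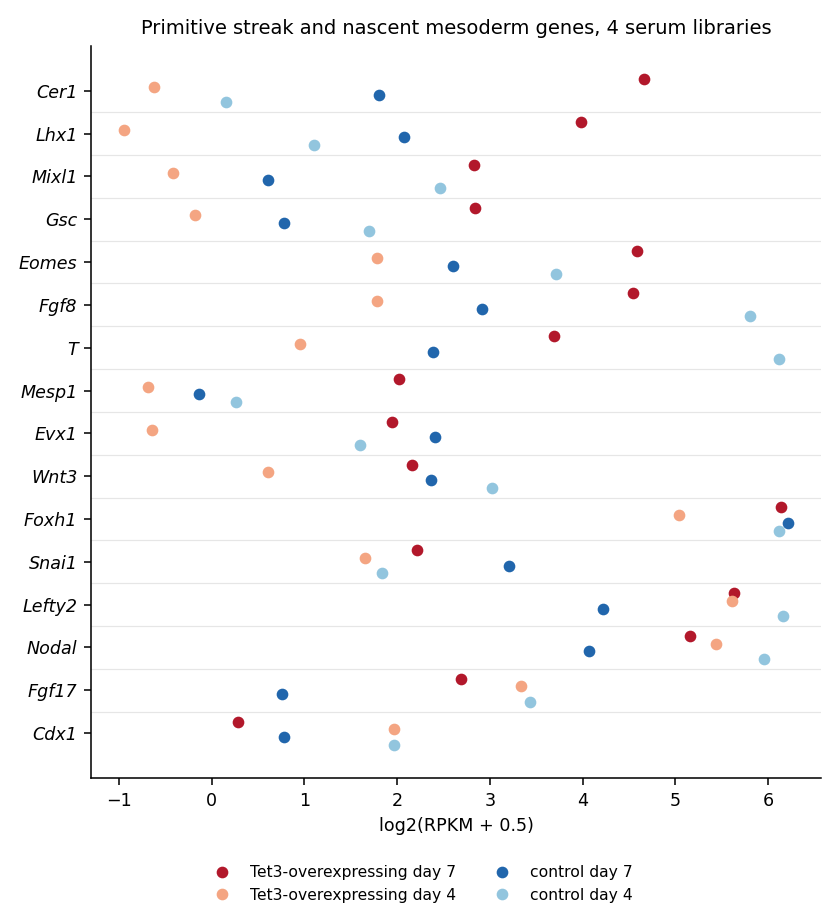
Levels of the 16 primitive streak and nascent mesoderm genes at 1 RPKM or more on either day in Tet3-overexpressing cells, as log2(RPKM + 0.5) on the horizontal axis, 1 point per library, ordered by the ratio of day 7 over day 4 in these cells. From Cer1 to Wnt3 the dark red points (Tet3-overexpressing, day 7) lie to the right of the pale red ones (Tet3-overexpressing, day 4), and for T and Fgf8 the pale blue points (control, day 4) lie furthest right.

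Some signalling genes around the streak shared its pattern and others did not. For the counts in this paragraph, the shares over all genes were 3.46% higher and 1.26% lower in overexpressing cells. In control cells they were 11.7% and 8.68%. Of 17 Wnt target and feedback genes, 15 passed the level needed in overexpressing cells, 3 were higher and 1 lower. The Wnt target Sp5, a zinc finger factor, was at 3.73 RPKM on day 7 and 0.13 RPKM on day 4 (log2 2.75), against 1.74 and 5.56 RPKM in control cells (-1.44). Wnt3, the ligand required for the streak in mice, was at 3.98 and 1.02 RPKM, against 4.65 and 7.61 RPKM in control cells. Wnt8a, another streak ligand, was at 7.04 and 4.56 RPKM (0.58), against 1.69 and 40.0 RPKM in control cells (-4.21). Of 9 secreted Wnt antagonists that passed, 4 were higher in overexpressing cells: Cer1, Frzb at 7.36 and 0.37 RPKM, Sfrp5 at 6.98 and 0.40 RPKM, and Dkk1 at 4.85 and 0.30 RPKM on day 7 and day 4. These 4 were higher in control cells as well, with Dkk1 at 14.8 and 0.50 RPKM there. Of 14 FGF ligands and feedback genes that passed, 4 were higher, and all 4 encode ligands. Fgf5, a marker of the epiblast after implantation, was at 32.8 RPKM on day 7 and 9.49 RPKM on day 4 (1.74), against 4.56 and 22.5 RPKM in control cells (-2.18). Fgf10, known for limb and lung budding, was at 5.50 and 0.32 RPKM, and Fgf3 at 3.59 and 0.90 RPKM. Spry4, a feedback inhibitor of FGF signalling, was the lower member at 16.6 and 35.1 RPKM. Fst, the activin antagonist follistatin, was at 16.9 and 5.43 RPKM (1.55), against 4.24 and 46.3 RPKM in control cells (-3.30). Of 18 BMP genes, 16 passed, 6 were higher and 1 lower in overexpressing cells (median 0.81), against 13 higher and 1 lower of 18 in control cells (2.35). Bmp2 was at 5.43 RPKM on day 7 and 1.07 RPKM on day 4, against 14.0 and 1.02 RPKM in control cells, and Bmp4 at 3.04 and 1.21 RPKM, against 39.8 and 2.21 RPKM.

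Endoderm genes were higher on day 7 in both kinds of cells. Of 16 endoderm transcription factors 10 passed in overexpressing cells, 9 were higher on day 7 and 0 lower (median 2.07), and in control cells 10 of 11 were higher (2.71). Across all genes, 3.46% were higher and 1.26% lower in overexpressing cells, and 11.7% and 8.68% in control cells. As for the streak list, the counts here and below describe the genes that passed. Sox17, an early endoderm factor, was at 7.80 RPKM on day 7 and 0.26 RPKM on day 4 in overexpressing cells, against 8.73 and 0.59 RPKM in control cells. Foxa2, a pioneer factor of endoderm and axial mesoderm, was at 5.05 and 0.29 RPKM, against 5.59 and 1.88 RPKM. The day 7 levels of these factors were close between the kinds of cells. Gata6 was lower in overexpressing cells, at 4.71 RPKM on day 7 and 0.28 RPKM on day 4, against 24.1 and 1.27 RPKM in control cells, and Gata4 was at 13 and 1.90 RPKM, against 27.1 and 3.71 RPKM. Of 24 visceral endoderm genes 15 passed, 11 were higher and 0 lower in overexpressing cells (median 1.46). Some secreted proteins of visceral endoderm were higher on day 7 in overexpressing cells and yet far below their control level of that day, unlike Spink3. Ttr, the carrier of thyroid hormone, was at 3.23 RPKM on day 7 and 0.15 RPKM on day 4 (log2 2.52), against 76.1 and 0.02 RPKM in control cells. Apoa1, a lipoprotein component, was at 8.88 and 0.27 RPKM (3.61), against 69.4 and 0.30 RPKM. Rbp4, the retinol carrier, was at 4.01 and 1.14 RPKM, against 84.1 and 1.96 RPKM. Basement membrane genes of parietal endoderm were higher in 6 of 15 cases, with Col4a1 at 85.1 RPKM on day 7 and 25.1 RPKM on day 4 and the laminin chain Lama1 at 14.3 and 2.69 RPKM. The keratins of simple epithelium, which line the same tissues, were among the abundant transcripts that were higher on day 7. Krt8 was at 269.2 RPKM on day 7 and 32.1 RPKM on day 4 (log2 3.05), against 524.1 and 93.8 RPKM in control cells (2.48), and its partner Krt18 was at 337.9 and 61.7 RPKM, against 606.9 and 159.5 RPKM. Cdh1, the epithelial cadherin, was at 124.7 and 88.8 RPKM in overexpressing cells, against 47.9 and 111.5 RPKM in control cells.

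**Figure D3:**
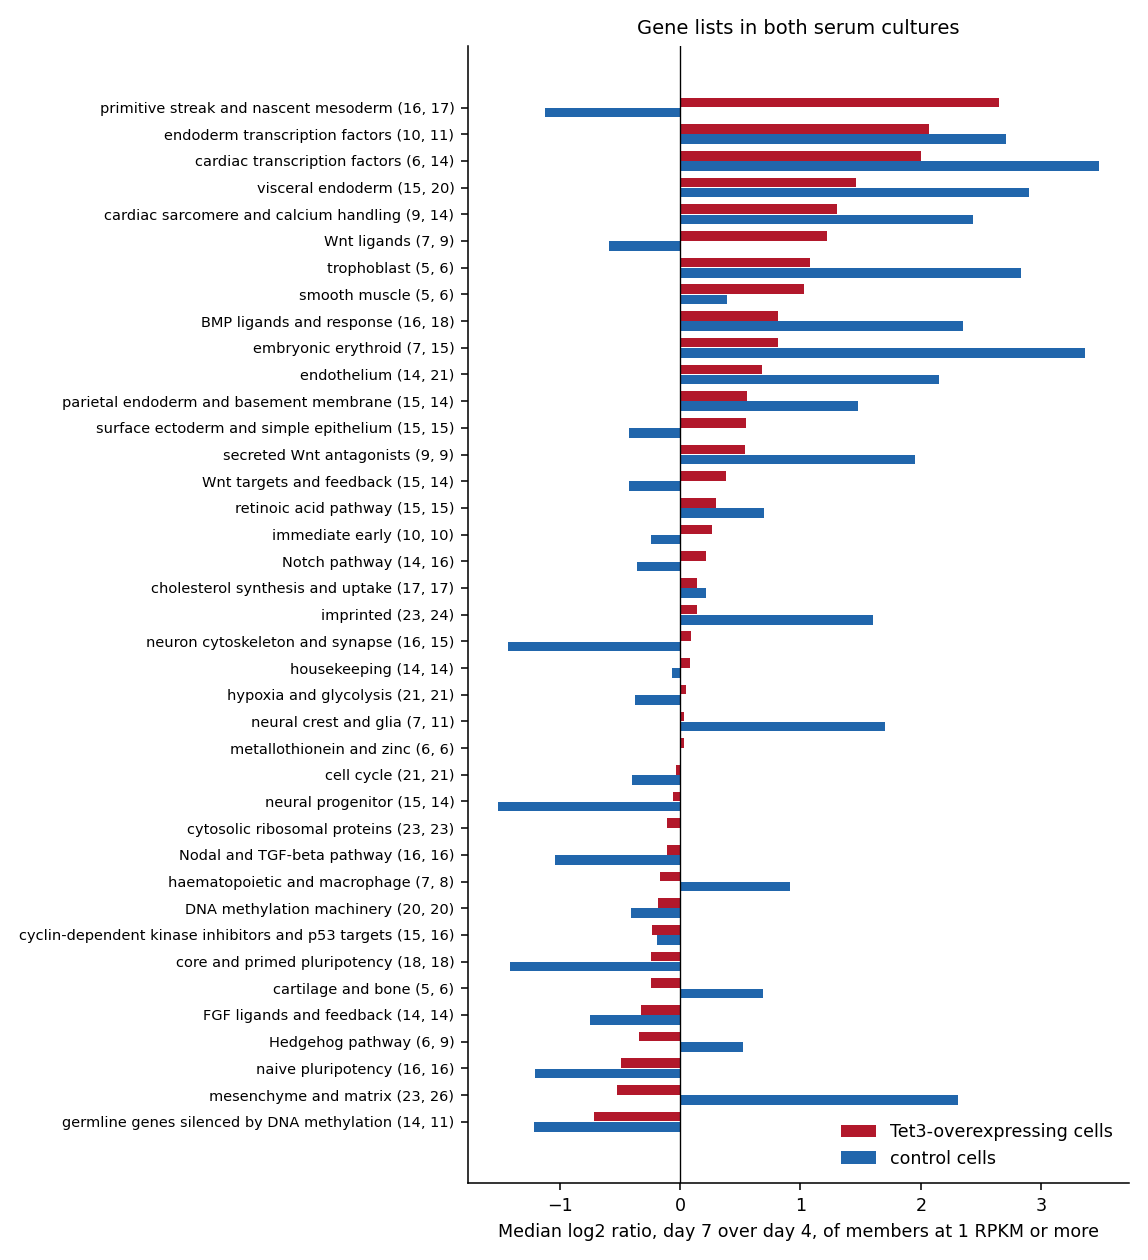
Median log2 ratio of day 7 over day 4 for each gene list with at least 5 members at 1 RPKM or more in both kinds of cells, for Tet3-overexpressing cells (red) and control cells (blue), with the numbers of such members in brackets in the same order. The streak list has a median of 2.65 in overexpressing and -1.12 in control cells, and the mesenchyme and matrix list -0.52 and 2.31.

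Pluripotency transcripts were a little lower on day 7 in overexpressing cells. All 16 naive pluripotency genes passed, 1 was at least 2-fold lower and 0 higher (median -0.49), against 13 lower of 16 in control cells (-1.20). Pou5f1 was at 879.9 RPKM on day 7 and 1186 RPKM on day 4 (log2 -0.43, counting interval -0.47 to -0.39), against 206.9 and 1118 RPKM in control cells (-2.43). Sox2, its partner factor, was at 62.2 and 86.3 RPKM, against 16.0 and 51.2 RPKM. Nanog, the 1 naive gene past 2-fold, was at 8.55 and 18.1 RPKM (-1.04), against 4.13 and 16.6 RPKM (-1.89). Overexpressing and control cells stood close together on day 4 and apart on day 7 in Pou5f1. Esrrb, a nuclear receptor of the naive state, was at 58.3 and 100.5 RPKM, against 13.4 and 55.5 RPKM. Tdgf1, the co-receptor Cripto, was at 361.8 and 446.0 RPKM (-0.30), against 75 and 701.6 RPKM in control cells (-3.22). In control cells 13 of the 18 core and primed pluripotency genes were lower, beside 8.68% of all genes. In overexpressing cells 1 was higher and 0 lower, beside 3.46% and 1.26% of all genes. The higher one was Fgf5, and Dnmt3b and Otx2, which are also abundant in the epiblast after implantation, were higher without reaching 2-fold. Dnmt3b, a methyltransferase that adds the mark Tet enzymes act on, was at 250.9 RPKM on day 7 and 143.2 RPKM on day 4 (0.81), against 49.0 and 182.4 RPKM in control cells (-1.88). Otx2, a homeobox factor of epiblast and forebrain, was at 49.1 and 26.7 RPKM, against 9.61 and 38.1 RPKM. Pim2, a serine/threonine kinase, was at 302.9 and 174.5 RPKM (0.79), against 25.9 and 439.8 RPKM in control cells (-4.06), a difference between the courses of 4.85. In bulk RNA, fewer cells of a type and less RNA per cell cannot be told apart.

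**Figure D4:**
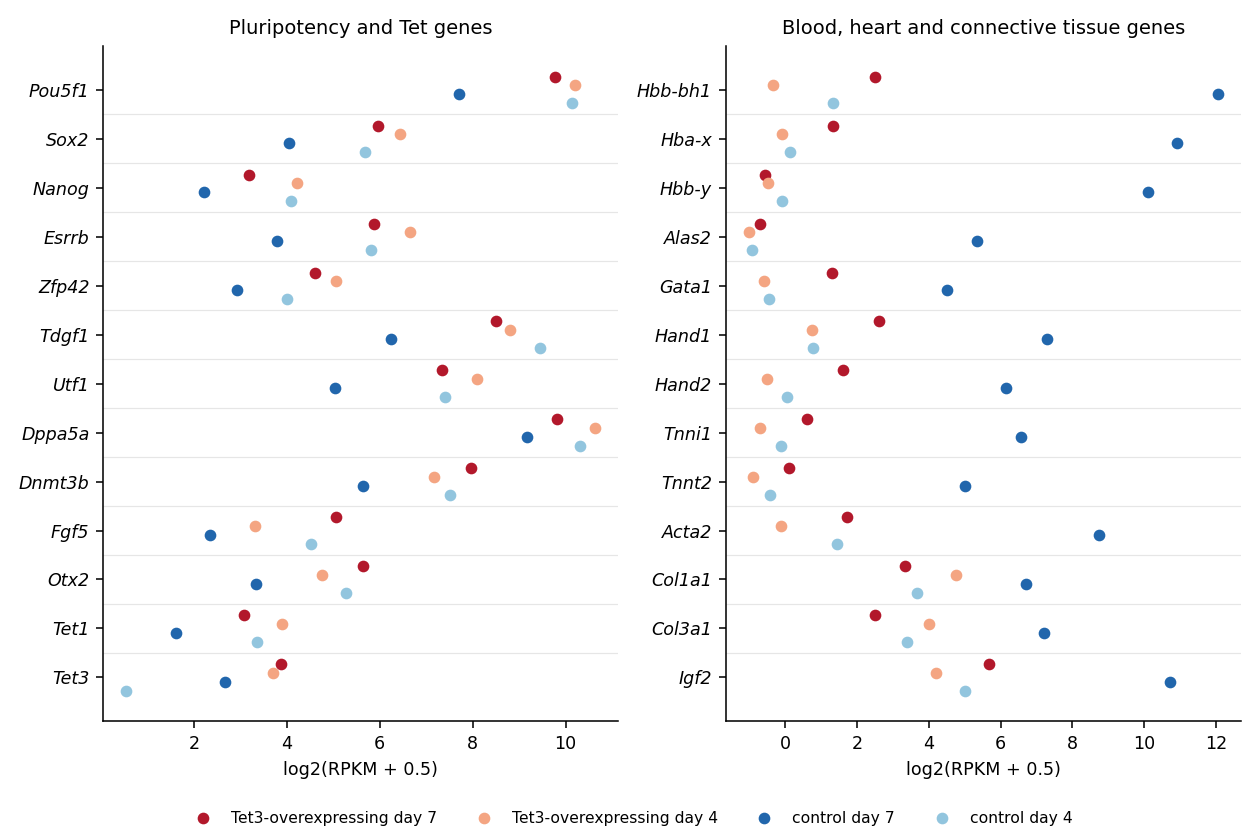
Levels of 13 pluripotency, methylation and Tet genes (left) and of 13 blood, heart and connective tissue genes (right) in the 4 serum libraries, as log2(RPKM + 0.5), 1 point per library. For Pou5f1 and the genes under it the dark blue points (control, day 7) lie to the left of the other libraries except for Tet3, and on the right panel they lie to the right of both Tet3-overexpressing libraries.

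Several genes of later mesoderm derivatives were higher on day 7 in overexpressing cells, but most named here stayed far below their day 7 level in control cells. Hbb-bh1, an embryonic beta-like globin, was at 5.15 RPKM on day 7 and 0.29 RPKM on day 4 in overexpressing cells, against 4230 and 2.01 RPKM in control cells. Hba-x, the embryonic alpha-like globin, was at 2 and 0.45 RPKM, against 1922 and 0.61 RPKM, and Hbb-y at 0.18 and 0.22 RPKM, against 1113 and 0.44 RPKM. The summed level of the 20 erythroid genes was 18.9 RPKM on day 7 and 7.4 RPKM on day 4 in overexpressing cells, against 7410 and 12.9 RPKM in control cells. These globins stood apart from all other libraries in control cells on day 7. Of the 20, 7 passed in overexpressing cells, with 3 higher, and 15 in control cells, with 14 higher. Over all genes compared, 3.46% were higher and 1.26% lower in overexpressing cells, and 11.7% and 8.68% in control cells. Genes that passed only through their day 7 level had to be higher on that day, here and in the lists below. Alas2, the first enzyme of haem synthesis in red cells, was at 0.12 RPKM on day 7 and listed at 0 on day 4, against 40.4 and 0.03 RPKM. Of 21 endothelial genes 14 passed and 6 were higher in overexpressing cells (median 0.68), against 18 higher of 21 in control cells (2.15). Kdr, the main receptor of vascular growth factor, was at 5.05 and 0.22 RPKM, against 36.3 and 2.13 RPKM. Of 16 cardiac transcription factors 6 passed and 5 were higher in overexpressing cells, and 14 of 14 that passed in control cells were higher. The 16 factors summed to 348 RPKM on day 7 and 9.88 RPKM on day 4 in control cells, so these counts describe the genes that passed. Hand1, a bHLH factor of heart and extraembryonic mesoderm, was at 5.63 and 1.18 RPKM (log2 1.87), against 157.5 and 1.20 RPKM (6.54). Tnni1, a troponin of embryonic heart, was at 1.03 and 0.12 RPKM, against 94.9 and 0.43 RPKM. Acta2, the actin of smooth muscle, was at 2.79 and 0.43 RPKM (1.82), against 430.4 and 2.21 RPKM (7.31). The smooth muscle list as a whole did not share that order, with 3 of 5 members that passed higher in overexpressing cells (median 1.03), against 2 higher and 1 lower of 6 in control cells (0.39). Its member Tagln, an actin-binding protein, was at 24.4 and 5.02 RPKM (2.18), against 73.3 and 75.1 RPKM (-0.03). Rgs5, a gene of pericytes, was at 1.30 and 1.26 RPKM, against 75.5 and 0.55 RPKM, and Pitx1, a homeobox factor of the hindlimb, at 0.12 and 0.16 RPKM, against 59.6 and 0.27 RPKM.

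Posterior Hox genes stayed at 1.01 RPKM or less in overexpressing cells, and several connective tissue genes were lower on day 7. Among 24 Hox genes of the posterior groups, known for patterning the trunk, 1 reached 1 RPKM on either day in overexpressing cells, Hoxa7 at 0.23 RPKM on day 7 and 1.01 RPKM on day 4, against 17 in control cells, all 17 higher on day 7. In control cells the 24 genes summed to 81.9 RPKM on day 7 and 5.8 RPKM on day 4. A gene that passed only through its day 7 level had to be higher on that day, so the count of 17 describes the genes that passed. Hoxd9, for example, was listed at 0 on day 7 and at 0.23 RPKM on day 4, against 9.72 and 0.24 RPKM in control cells. Of 26 mesenchyme and matrix genes 23 passed, 1 was higher and 8 lower in overexpressing cells (median -0.52), against 17 higher and 4 lower of 26 in control cells (2.31). The shares over all genes were 3.46% higher and 1.26% lower in overexpressing cells, and 11.7% and 8.68% in control cells. Col3a1, a fibrillar collagen, was at 5.15 RPKM on day 7 and 15.6 RPKM on day 4 (log2 -1.51, counting interval -2.0 to -1.19), against 147.4 and 9.94 RPKM in control cells (3.82). Col1a1 was at 9.72 and 26.5 RPKM (-1.40), against 103.7 and 12.4 RPKM (3.01), and Col1a2 at 5.59 and 17.6 RPKM (-1.57), against 58.5 and 9.64 RPKM (2.54). These fibrillar collagens were lower on day 7 in overexpressing cells and higher on day 7 in control cells. Other matrix genes were lower in both, among them Mgp, Col6a1 at 13.1 and 29.6 RPKM, against 7.74 and 17.8 RPKM, and Spp1, which encodes osteopontin, at 430.0 and 1028 RPKM, against 98.6 and 535.6 RPKM. The member that was higher, Pdgfra, a growth factor receptor of mesenchyme and of primitive endoderm, was at 3.61 and 1.34 RPKM, against 21.6 and 1.41 RPKM.

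Neural progenitor genes went both ways in overexpressing cells. Of 30 such genes 15 passed, 1 was higher and 2 lower, beside 3.46% higher and 1.26% lower of all genes, with a median of -0.06 that became 0.01 when libraries were scaled to an equal sum, against 1 higher and 10 lower of 14 in control cells (-1.51). Sox1, an early neuroectoderm factor, was at 5.61 RPKM on day 7 and 16.3 RPKM on day 4 (log2 -1.46), against 0.05 and 1.24 RPKM in control cells. Gbx2, given above, was the other lower member. Fabp7, a fatty acid carrier of radial glia, was the higher one at 3.75 and 1.11 RPKM, against 0.72 and 1.43 RPKM. Pax6 was at 3.47 and 5.71 RPKM, against 0.33 and 1.57 RPKM in control cells, and the Zic factor Zic2 at 32.9 and 35.4 RPKM, against 5.17 and 33.5 RPKM. Overexpressing cells thus held more Sox1 and Pax6 transcript than control cells on both days. Of 21 proneural and neuronal differentiation factors 4 passed, 1 higher and 1 lower. Of 25 neuron cytoskeleton and synapse genes 16 passed, 1 was higher and 0 lower (median 0.09, or -0.22 with the filter at 5 RPKM), against 2 higher and 10 lower of 15 in control cells. The higher one was Stmn4, a stathmin, at 1.39 and 0.44 RPKM, and the abundant Stmn2 was at 133.6 and 155.8 RPKM, against 21.7 and 97.7 RPKM in control cells. Tubb3, the neuronal tubulin, was at 42.8 and 69.2 RPKM, against 6.37 and 18.0 RPKM.

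Imprinted genes and a set of germline genes are known to be governed by DNA methylation. Beside the counts below, 3.46% of all genes were higher and 1.26% lower on day 7 in overexpressing cells. In control cells the shares were 11.7% and 8.68%. Of 29 imprinted genes 23 passed, 5 were higher and 2 lower on day 7 in overexpressing cells (median 0.14, or -0.03 with no filter on low values), against 16 higher and 2 lower of 24 in control cells (1.60). Igf2, a fetal growth factor, was at 51.2 RPKM on day 7 and 17.8 RPKM on day 4 (log2 1.49), against 1679 and 31.5 RPKM in control cells (5.71). Its neighbour H19, given above, was lower on day 7 in both. Dlk1, a Notch-like inhibitor of differentiation, was at 1.92 and 4.94 RPKM (-1.17), against 126.3 and 2.61 RPKM (5.35). Peg3 was at 74.5 and 27 RPKM, against 286.5 and 43.6 RPKM. Of 20 germline genes that DNA methylation silences 14 passed, 3 were lower and 0 higher in overexpressing cells (median -0.71), against 7 lower of 11 in control cells (-1.21). The 3 were Rpl10l at 5.87 and 12.7 RPKM, Tuba3a at 0.95 and 3.35 RPKM, and Mov10l1 at 0.85 and 2.35 RPKM. Ddx4, a helicase of germ cells, was at 6.62 and 10.7 RPKM, against 1.57 and 9.80 RPKM. Of 20 genes of the methylation machinery that passed, 2 were lower. They were Tet2 and the stress-induced gene Gadd45a, which was at 24.8 and 56.3 RPKM, against 14.5 and 41.8 RPKM in control cells.

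Set gene by gene, the courses shared part of their direction. Of 12387 genes that reached 1 RPKM in any of the 4 libraries, 258 passed 2-fold upward in both kinds of cells, which is 59.7% of the 432 higher in overexpressing cells and 18.1% of the 1426 higher in control cells. Lower in both were 53, which is 35.6% of 149 and 4.91% of 1079. The courses share no library, and their log2 ratios correlated at Pearson 0.44 across 11369 genes that passed in both. Of the 1423 genes higher in control cells, 75.5% had a ratio above 0 in overexpressing cells, against 53.4% of all genes, and their median ratio was 0.33, against 1.63 in control cells. For the 1053 lower in control cells, 64.7% had a ratio below 0, against 46.4% of all genes, with medians of -0.15 and -1.41. On these genes the overexpressing cells thus mostly had the sign of the control course. The genes were chosen for passing 2-fold in control cells, so the choice itself favours a smaller size in overexpressing cells. A further 38 genes (0.307%) passed 2-fold upward in overexpressing and downward in control cells, and 12 (0.0969%) the reverse. The ratio was at least 4-fold higher in overexpressing than in control cells for 220 genes (1.78%) and at least 4-fold lower for 346 (2.79%). No interaction could be tested with 1 library per condition.

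**Figure D5:**
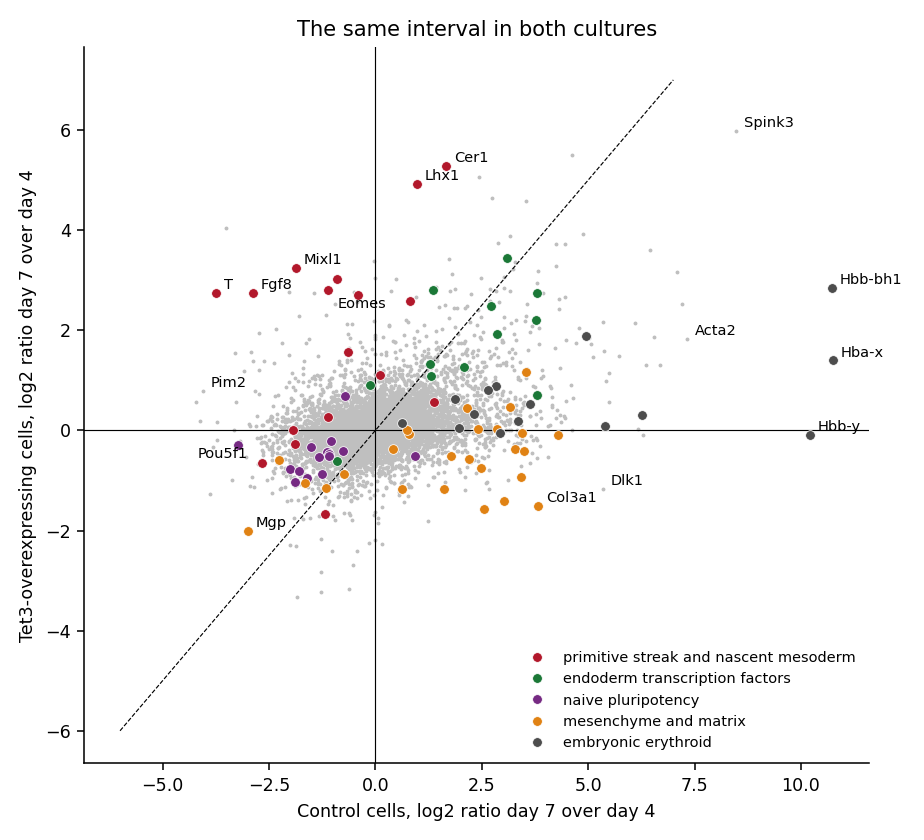
Log2 ratio of day 7 over day 4 in Tet3-overexpressing cells (vertical axis) against the same ratio in control cells (horizontal axis) for 12387 genes. The dashed line marks equal ratios. Red streak genes such as T, Fgf8 and Mixl1 lie at the upper left, higher in overexpressing and lower in control cells, while the globins lie at the far right near or above the horizontal line.

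Mir302d, a microRNA gene of a cluster known from ES cells, had the largest difference in favour of overexpressing cells, on few reads. It was at 7.79 RPKM on day 7 and listed at 0 on day 4 in overexpressing cells, an estimated 9 and 0 reads, against 0 on day 7 and 5.16 RPKM on day 4 in control cells, an estimated 0 and 15 reads. The value belongs to the hairpin gene and not to a mature arm. The mature 3p arm in RefSeq (GRCm38.p6, chr3:127545665-127545687, plus strand), shown for the gene with that difference and with its seed, bases 2 to 8, in capitals, reads:
mmu-miR-302d-3p: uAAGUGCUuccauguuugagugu
Of its cluster neighbours, Mir302a and Mir302b were listed at 0 in all 4 libraries, and Mir302c was at 0.84 RPKM on day 7 and 0 on day 4 in overexpressing cells, which is 1 read and 0 reads. Ltb, a cytokine of the lymphotoxin family, had a like pattern on more reads, at 8.72 RPKM on day 7 and 0.86 RPKM on day 4 (log2 2.76), against 3.51 and 16.0 RPKM in control cells (-2.04).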

How the data were processed

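Total RNA was sequenced in 10 libraries, 1 per condition and day, with a SOLiD total RNA-seq kit, per the labels' protocols. The authors deposited 1 table of RPKM values, rounded to 2 decimals, whose columns each match 1 title. HTSeq and the build mm9 are named in the submitters' processing notes, and the sources used here give no aligner, annotation, strand setting or rule for multiply mapped reads. Paralogs, overlapping genes and antisense partners may therefore share reads. Because RPKM is relative to depth, more reads on abundant transcripts mean lower values elsewhere.

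Ratios were computed as log2(RPKM + 0.5) on day 7 minus day 4, for genes at 1 RPKM or more in either library, with a gene counted at 2-fold or more and a difference of the courses at 4-fold or more. With 1 library a side no test was run and no p-value is given. Depth was estimated from steps of whole reads in 3932 genes with 1 annotated transcript, using GENCODE vM21 lengths. With these totals, 63.4% to 69.7% of low values came to whole reads within 0.15, and with other totals nearby 25.0% to 40.7% did. The totals were chosen on these same values. Estimated reads gave 95% Clopper-Pearson intervals, which cover counting error only, and 377 of 399 higher and 121 of 141 lower genes with such an estimate had an interval on 1 side of 0. The calling of genes past 2-fold was tried on simulated counts, in which the changed genes averaged 5 RPKM or more and differed by 4-fold or 8-fold. Counting error was the only error simulated. Changes near 2-fold, changes in genes under 5 RPKM and the intervals were not tried in this way.

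Genes are named if they are Tet genes, if they are among the 12 largest or smallest ratios at 5 RPKM or more, if they are among the 8 largest or smallest differences between the courses, or as up to 5 members of each list by ratio and further members that show what the list holds. There were 45 lists with 821 names of 766 genes, of which 5 names had no match in the table and 9 needed an older symbol. The members and lists were chosen with earlier results of these data known. Python 3.11.15, numpy 2.4.6, pandas 2.3.3, SciPy 1.17.1 and matplotlib 3.10.9 were used. Promoter and microRNA sequences are from RefSeq on GRCm38.p6.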

Additional observations from a re-analysis of the deposited data

Results flagged for a closer look

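The courses of Tet3-overexpressing and control cells moved in opposite directions for 38 genes, at least 2-fold higher on day 7 in overexpressing and 2-fold lower in control cells, and for 12 genes the other way round. These differences were not tested, since each rests on 4 single libraries. Among named genes, the log2 ratio of overexpressing minus that of control cells was 7.55 for Mir302d, which rests on 9 and 15 reads, 6.48 for T, 5.63 for Fgf8, 5.11 for Mixl1 and 4.86 for Fst. It was 4.80 for Ltb, 4.18 for Sp5, 3.92 for Eomes and 3.92 for Fgf5. It was 2.34 for Cnn1, a smooth muscle calponin at 5.12 RPKM on day 7 and 2.25 RPKM on day 4 in overexpressing cells, against 3.02 and 8.23 RPKM in control cells, and 2.09 for Stmn4. In the other direction it was -6.52 for Dlk1, -5.33 for Col3a1, -4.42 for Col1a1 and -4.12 for Col1a2. It was -3.66 for Hoxd13, at 0.21 RPKM on day 7 and 0.97 RPKM on day 4 in overexpressing cells, against 5.65 and 0.51 RPKM in control cells, and -2.78 for Loxl1, an enzyme that crosslinks elastin, at 1.16 and 3.25 RPKM, against 6.57 and 1.83 RPKM. Small RNA genes, with few reads each, were among the 38 as well as the 12.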

How the results depend on the processing

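No paired analysis was possible because each condition has 1 library and the labels carry no replicate numbers, and for the same reason no replicate could be left out. The alternatives were 2 other pseudocounts, a scaling, a centring and 2 other filters on low values. The sums before scaling were already close, from 499392 to 520338 RPKM. Scaling to 1000000 therefore raised all values while the pseudocount and the filter stayed the same. Its results thus reflect a smaller relative pseudocount and a looser filter more than an evening out of libraries. None of the genes chosen for the largest ratios changed sign under them, but list medians near 0 did. With libraries scaled to a sum of 1000000 the median was 0.01 for neural progenitor, 0.47 for somite, -0.24 for skeletal muscle, 0.02 for haematopoietic and 0.10 for Hedgehog genes, against -0.06, -0.21, 0.07, -0.17 and -0.34 without scaling. With no filter it was 0.13 for neural progenitor, -0.03 for imprinted and -0.10 for skeletal muscle genes, and with the filter at 5 RPKM -0.22 for neuron, 0.01 for Nodal pathway and -1.18 for skeletal muscle genes. With the filter at 5 RPKM, overexpressing cells had 180 genes higher and 60 lower on day 7, control cells 923 and 571, 28 genes were lower in both, 133 had a ratio at least 4-fold higher in overexpressing cells, and 24 were higher in overexpressing and lower in control cells. With a pseudocount of 0.1 RPKM, 405 genes were higher and 115 lower in both, 405 had a ratio at least 4-fold higher and 525 at least 4-fold lower in overexpressing cells, and 65 and 36 moved in opposite directions. With a pseudocount of 1 RPKM, 81 genes were lower in overexpressing cells, 29 lower in both, 125 had a ratio at least 4-fold higher, and 22 and 5 moved in opposite directions. With each library scaled to a sum of 1000000, 256 genes were lower in overexpressing cells, 97 lower in both, 367 had a ratio at least 4-fold higher, and 62 and 27 moved in opposite directions. The erythroid median was 2.84 with the filter at 5 RPKM and 0.17 with no filter, and that of mesenchyme and matrix genes -0.93 with the filter at 5 RPKM. A stricter filter leaves fewer genes, and a smaller pseudocount widens the ratios of low genes. An alternative chosen after seeing the data left out small RNA genes and gave 369 higher and 117 lower. Depth limits genes under about 1 RPKM, where 1 read of a transcript of 2 kilobases is worth 0.0294 RPKM on day 7 and 0.0223 RPKM on day 4 in overexpressing cells.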

Other observations

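A few genes that interferon is known to induce, picked after their values were seen and from no fixed list, were among the 38 genes higher on day 7 in overexpressing and lower in control cells. Gbp2, a guanylate-binding protein, was at 2.65 RPKM on day 7 and 0.56 RPKM on day 4 in overexpressing cells, against 2.12 and 19.3 RPKM in control cells. Igtp, an immunity-related GTPase, was at 2.15 and 0.62 RPKM, against 1.1 and 4.70 RPKM. Psmb8, an inducible proteasome subunit, was at 2.90 and 0.69 RPKM, against 2.12 and 10.2 RPKM, and Erap1, which trims peptides for antigen presentation, at 3.10 and 1.19 RPKM, against 2.42 and 6.81 RPKM. For these picked genes control cells on day 4 had the highest level of the 4 libraries. Other genes of this kind differed in pattern. Usp18, a deubiquitinase-like protease, was higher on day 7 in both kinds of cells, at 4.29 and 0.20 RPKM in overexpressing cells (log2 2.77), against 3.06 and 0.55 RPKM in control cells (1.76). Irgm1, an immunity-related GTPase, was at 3.46 and 0.82 RPKM (1.58), against 4.68 and 7.84 RPKM (-0.69).

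Lists of genes common to most cells had few or no members past 2-fold, as most genes did, since 3.46% of all genes were higher and 1.26% lower by that much. Of 21 cell cycle genes 0 were 2-fold higher or lower on day 7 (median -0.03), and likewise 0 of 21 hypoxia and glycolysis genes (0.05), 0 of 17 cholesterol genes (0.14), 0 of 23 ribosomal protein genes (-0.11) and 0 of 14 housekeeping genes (0.08). The zinc-binding metallothionein Mt1 was at 1320 RPKM on day 7 and 1234 RPKM on day 4 in overexpressing cells, against 364.5 and 318.7 RPKM in control cells, so overexpressing cells stood above control cells on both days.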
